A study of Mus musculus with 18 samples.

Results

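Amphiregulin and 6 other genes linked to tissue repair were followed in group 2 innate lymphoid cells (ILC2). The 7 genes were Areg, Hbegf, Furin, Tgfb1, Arg1, Lgals1 and Lgals3, and they were chosen by name, as the entries with these symbols among the 24781 genes of the count table. The choice was made with earlier results of these data known. All 7 were detected, and 5 of them (all but Hbegf and Lgals3) had enough counts for a test among the 1916 genes tested.

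The cells were sorted from lung and bone marrow, and every mouse lacked Rag2 and with it T and B cells. The CD45 KO x Rag2 KO mice also lacked CD45, a receptor-type tyrosine phosphatase of leukocytes encoded by Ptprc, and the Rag2 KO mice served as controls. The 6 groups of 3 libraries were lung CD45 KO, lung control, mature marrow CD45 KO, mature marrow control, immature marrow CD45 KO and immature marrow control, where immature stands for the ILC2 precursor (ILC2P). Age, sex and any pooling of mice were not in the labels. The labels do not say that the libraries of a group came from separate mice, so the p-values measure the spread between these libraries, which may be technical.

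ILC2 are lymphocytes without rearranged antigen receptors that secrete type 2 cytokines and sit at barrier surfaces, where they take part in the repair of epithelium. Amphiregulin is made as a membrane-bound precursor, is shed by metalloproteases such as ADAM17 and signals through the EGF receptor on epithelial and stromal cells. Furin is a proprotein convertase that cleaves many precursors, the TGF-beta precursor among them. Arginase 1 turns arginine into ornithine, from which polyamines and proline are made, and galectins are secreted proteins that bind beta-galactosides on glycoproteins.

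In the GENCODE M21 annotation of mm10 all 7 are protein-coding genes. Areg lies on the plus strand at chr5:91139599-91148432, Arg1 on the minus strand at chr10:24915221-24927484 and Lgals1 on the plus strand at chr15:78926725-78930465. Furin, on the minus strand at chr7:80388585-80405436, and Tgfb1, on the plus strand at chr7:25687002-25705077, share a chromosome. Lgals3 lies on the plus strand at chr14:47367751-47386160, and the position of Hbegf is given with its counts.

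Promoter sequences are shown for Areg, the member that differed most between the tissues, and for Tgfb1. Both are the 250 bases before the RefSeq transcription start on GRCm38.p6, plus strand, at chr5:91139349-91139598 and chr7:25686752-25687001. Capitals in the Areg sequence mark TGACGTCA, the cyclic AMP response element, 61 to 54 bases upstream of the start, and TATAAA, the TATA box, 31 to 26 bases upstream.
Areg: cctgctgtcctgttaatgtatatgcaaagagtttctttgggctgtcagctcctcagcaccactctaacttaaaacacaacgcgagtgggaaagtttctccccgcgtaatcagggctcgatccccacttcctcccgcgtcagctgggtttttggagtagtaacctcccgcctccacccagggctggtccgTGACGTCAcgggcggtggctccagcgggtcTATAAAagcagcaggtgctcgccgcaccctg
Capitals in the Tgfb1 sequence mark the reverse complement of GCGTGGGCG, the motif of the EGR family, 122 to 114 bases upstream.
Tgfb1: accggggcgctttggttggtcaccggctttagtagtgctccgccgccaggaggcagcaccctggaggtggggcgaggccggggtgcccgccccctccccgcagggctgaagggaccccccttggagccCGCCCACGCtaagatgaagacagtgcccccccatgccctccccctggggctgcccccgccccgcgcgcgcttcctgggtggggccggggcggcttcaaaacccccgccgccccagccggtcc

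The Areg window had 57.2% G or C and the Tgfb1 window 75.2%, against a median of 52.4% over 32851 promoter windows of the same length. TGACGTCA was present on either strand in 1.55% of those windows, GCGTGGGCG on either strand in 0.536% and TATAAA on the gene's own strand in 7.59%. The letters TGANTCA of AP-1 and AAAGGTCA of the NR4A receptors, searched on both strands, were in neither window and are present in 6.75% and 1.34% of all windows. No match overlapped another. RefSeq held a promoter entry for 4 of the 7 members, and a match describes the letters and nothing about binding. In the Furin and Lgals3 windows, which are not shown, the only match was TATAAA in a Furin window, 23 to 18 bases upstream.

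Library totals ran from 68077 to 122250 counts with 7189 to 8793 genes detected, so that 3 counts, the floor used here for a count of 0, stood for 25.3 to 44.7 CPM (counts scaled to a common library size). All 12 ILC2 marker genes were detected in every group, with 741 to 1277 counts per lung library and 462 to 875 per marrow library. Ptprc was at 112, 153 and 229 CPM in lung CD45 KO and 546, 563 and 628 CPM in lung control libraries. It was at 42.0, 98.6 and 138 CPM in immature CD45 KO and 342, 362 and 464 CPM in immature control libraries. In mature ILC2 it was at 238 CPM in the library labelled CD45 KO replicate 1 and 88.0 and 101 CPM in the other CD45 KO libraries, against 253, 458 and 541 CPM in control libraries. Ptprc was lower in all 3 CD45 KO populations (log2 fold changes of -1.86, -1.68 and -2.01 in lung, mature and immature ILC2, and adjusted p = 0.00015 or below by edgeR's quasi-likelihood test), but the library labelled mature CD45 KO replicate 1 lay close to the lowest control. With that library left out, the mature value of Ptprc was -2.16 (adjusted p = 3.21e-07). That library also stood apart over all genes, with a chi-square per degree of freedom between counts of 3.61 and 3.84 in its pairs with the other mature CD45 KO libraries, against 1.12 to 1.80 in the other 16 pairs of replicates.

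Other libraries stood apart in markers of other cells. Macrophage and monocyte markers summed to 20 counts, or 278 CPM, in lung CD45 KO replicate 1 and to 0 and 1 counts in the other lung CD45 KO libraries, while all 13 genes of that list were at 0 in lung control libraries. Over the lung CD45 KO libraries Lyz2 had 8 counts, Ear2 5 and Marco 2, and the other defining genes of the list were at 2 counts or fewer. Neutrophil markers summed to 177 counts, or 2638 CPM, in mature control replicate 1 and to 9 and 12 counts in the other mature control libraries. In these sorted samples a change in the share of cells that make a transcript and a change in the amount per cell cannot be told apart.

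The lung and marrow libraries also differed in sex-linked transcripts. Xist, the RNA of the inactive X chromosome, had 52 to 105 counts in each of the 6 lung libraries and 0 counts in each of the 12 marrow libraries. The Y-linked genes Ddx3y, Eif2s3y, Kdm5d and Uty together had 0 counts in each lung library and 10 to 32 counts in each marrow library. The lung cells therefore carried the transcripts of female mice and the marrow cells those of male mice, so every lung against marrow value below compares tissue and sex at once and these cannot be told apart. Within each tissue both genotypes had the same sex-linked transcripts.

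**Figure D1:**
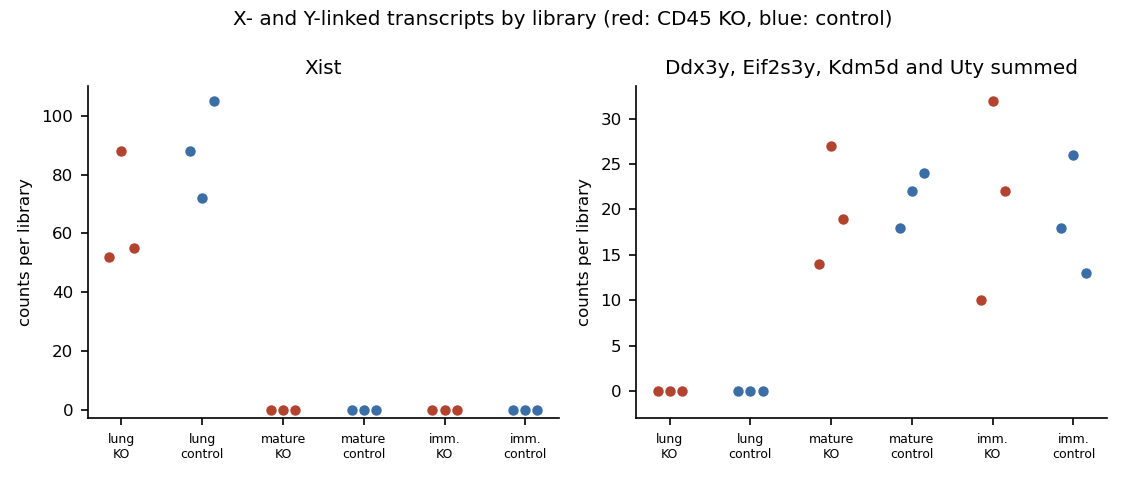
Counts per library of Xist (left panel) and of 4 Y-linked genes summed (right panel), 1 point per library, by group on the horizontal axis, with CD45 KO in red and control in blue. Xist was at 52 to 105 counts in lung and 0 in marrow libraries, and the Y-linked sum was at 0 in lung and 10 to 32 counts in marrow libraries.

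Areg, Furin, Tgfb1, Arg1 and Lgals1 were higher in lung than in marrow ILC2 (mature and immature groups averaged) in CD45 KO mice and in control mice, by edgeR's quasi-likelihood test (p adjusted by Benjamini-Hochberg over all genes tested). Areg, Lgals1 and Tgfb1 reached the count filter through lung libraries alone, as did 256 of the 1916 tested genes (13.4%). Their being tested thus depended on their lung level, and nothing is read from their number. Arg1 and Furin had enough counts for the filter in either tissue. In the same comparisons 16.6% of all tested genes were called higher in CD45 KO mice and 17.6% in control mice, and 28.1% and 31.1% were called in either direction. DESeq2 also called all 5 in both genotypes, and 20.9% and 23.3% of all tested genes. With the library labelled mature CD45 KO replicate 1 left out, edgeR's log2 fold changes in CD45 KO mice were 5.56 for Areg, 3.0 for Furin, 2.08 for Tgfb1, 1.01 for Arg1 and 3.19 for Lgals1, and each was called. Lung and marrow libraries did not overlap in CPM for any of the 5 in either genotype, as for 26.9% of all tested genes in CD45 KO and 27.3% in control mice.

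Areg, the amphiregulin gene, was the member with the widest difference. It was at 1864, 1861 and 1538 CPM in lung CD45 KO and at 1190, 1187 and 1398 CPM in lung control libraries. In mature marrow ILC2 it had 3, 2 and 14 counts in CD45 KO and 1, 0 and 0 counts in control libraries. In immature ILC2 it had 3, 3 and 0 counts in CD45 KO and 1, 1 and 1 counts in control libraries. Lung libraries were high without exception, and in marrow all but 1 library, mature CD45 KO replicate 3, were at or under the floor of 3 counts. Summed over libraries, lung CD45 KO had 448 counts and marrow CD45 KO 25, a ratio of CPM of 44.4 (exact 95% interval 29.7 to 69.4). Lung control libraries had 378 counts and marrow control libraries 4, a ratio of 161 (62.4 to 594). The fitted log2 fold changes were 5.63 ± 0.22 in CD45 KO (SE, adjusted p = 3.6e-39) and 7.25 ± 0.31 in control mice (adjusted p = 8.23e-36).

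Of the other EGF-family ligands, Hbegf, which encodes the heparin-binding EGF-like growth factor (minus strand, chr18:36504927-36515805), was close to undetected. It had 5 counts in all, 1 each in all 3 mature CD45 KO libraries, immature CD45 KO replicate 2 and lung CD45 KO replicate 2, and 0 counts in each of the 9 control libraries. No group held more than 3 counts, so no fold is given. Of 11 EGF-family ligand genes listed, 5 were detected and Areg was the single one with enough counts for a test. Of the 4 EGF-family receptor genes, Egfr was the single one detected, with 6 counts over all 18 libraries, and none was tested. Adam10, a sheddase, was the single tested gene of 7 in the shedding list, with 71.6 ± 33.6 CPM in lung CD45 KO and 47.3 ± 6.80 CPM in lung control libraries (SD, n = 3 each), and it was called in none of the 10 comparisons. Adam17, the main sheddase of amphiregulin, had too few counts for a test, at 36.8 ± 16.3 CPM in lung CD45 KO and 12.4 ± 13.3 CPM in lung control libraries. These were 9 and 4 counts in all. In marrow the CD45 KO means were the lower ones, at 27.2 against 57.7 CPM in mature and 35.0 against 48.5 CPM in immature ILC2.

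**Figure D2:**
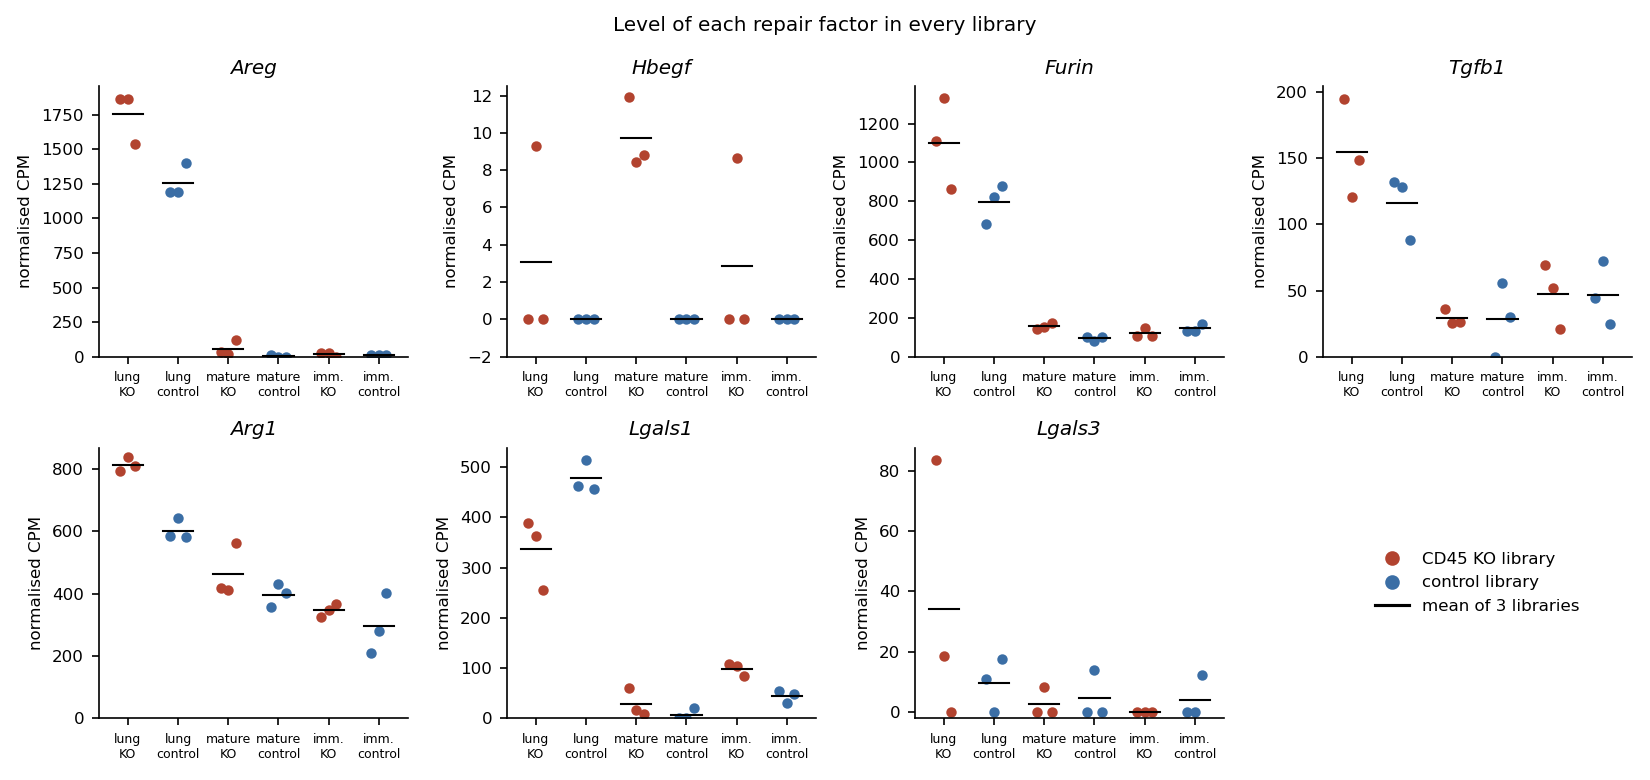
Normalised CPM of the 7 repair factors in each of the 18 libraries (1 panel per gene, each with its own linear axis), with CD45 KO libraries in red, control libraries in blue and a bar at the mean of 3 libraries. Areg and Furin are high in all lung libraries, Arg1 is present in every library, and Hbegf and Lgals3 stay near the limit of detection.

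Furin, the convertase gene, was at 1113, 1331 and 864 CPM in lung CD45 KO and 683, 824 and 879 CPM in lung control libraries. In mature ILC2 it was at 143, 152 and 176 CPM in CD45 KO and 104, 83.3 and 100 CPM in control libraries. In immature ILC2 it was at 108, 147 and 105 CPM in CD45 KO and 133, 134 and 171 CPM in control libraries. Every lung library held more than every marrow library, and the marrow libraries ran from 83.3 to 176 CPM. The log2 fold change of lung over marrow was 3.0 ± 0.17 in CD45 KO (SE, adjusted p = 1.1e-27) and 2.74 ± 0.19 in control mice (adjusted p = 3.49e-22). Furin was the single tested gene of 9 listed proprotein convertases, of which 6 were detected.

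Tgfb1, which encodes the cytokine TGF-beta 1, was lower in level and differed less. It was at 195, 121 and 148 CPM in lung CD45 KO and 132, 128 and 87.9 CPM in lung control libraries. It was at 35.7, 25.3 and 26.4 CPM in mature CD45 KO and 0, 55.5 and 30.1 CPM in mature control libraries. In immature ILC2 it was at 69.0, 51.9 and 21 CPM in CD45 KO and 44.2, 72.4 and 24.4 CPM in control libraries. Lung libraries lay above all marrow libraries, but many of the marrow values were within the floor of a single library. The log2 fold change was 1.99 ± 0.42 in CD45 KO (SE, adjusted p = 5.98e-05) and 1.58 ± 0.45 in control mice (adjusted p = 0.00353). With immature ILC2 alone as the marrow group, the Tgfb1 call in control mice was lost (1.23, adjusted p = 0.0599).

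Other genes of the TGF-beta pathway differed between the tissues as well. Of 26 genes listed, 21 were detected and 8 tested, and lung against marrow called 5 higher and 1 lower in CD45 KO mice and likewise 5 higher and 1 lower in control mice. Of the 8, Tgfb1, Skil, Tgif1 and Smad7 reached the filter through lung libraries alone and Nrros through marrow libraries alone, so their number is a description. Skil, a repressor of SMAD transcription, was higher by 4.04 ± 0.31 in CD45 KO (log2, SE, adjusted p = 8.7e-21) and 3.34 ± 0.28 in control mice (adjusted p = 1.36e-18). Tgif1, another corepressor, was higher by 3.88 ± 0.58 in CD45 KO and 2.03 ± 0.49 in control mice. Smad7, the inhibitory SMAD, was higher by 1.20 ± 0.43 in CD45 KO and 1.46 ± 0.43 in control mice, and Ski by 0.72 ± 0.29 and 0.68 ± 0.26. Nrros, which tethers latent TGF-beta to the cell surface, was lower by -1.40 ± 0.51 in CD45 KO and -1.55 ± 0.50 in control mice. Tgfbr2, the type 2 receptor gene, was at 204 ± 15.5 CPM in lung CD45 KO and 212 ± 38.4 CPM in lung control libraries (SD, n = 3 each) and was not called between the tissues. Leaving out 1 library at a time, Nrros and Ski lost their calls in both genotypes, with the highest adjusted p at 0.163 and 0.151 in CD45 KO and 0.108 and 0.174 in control mice, and Smad7 lost it in CD45 KO mice (0.196).

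Arg1, the arginase gene, was abundant in every group and differed least. It was at 793, 837 and 810 CPM in lung CD45 KO and 584, 642 and 580 CPM in lung control libraries. In mature ILC2 it was at 417, 413 and 563 CPM in CD45 KO and 358, 430 and 401 CPM in control libraries. In immature ILC2 it was at 325, 346 and 368 CPM in CD45 KO and 210, 279 and 403 CPM in control libraries. The group means decreased down this order, the lung groups overlapped with no other group, and in marrow mature CD45 KO lay above both immature groups while the remaining neighbours overlapped. The log2 fold change of lung over marrow was 1.02 ± 0.15 in CD45 KO (SE, adjusted p = 3.92e-08) and 0.81 ± 0.17 in control mice (adjusted p = 4.79e-05). Arg2, the mitochondrial arginase gene, had 0 counts in every group.

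Of 17 genes of arginine and polyamine metabolism, 15 were detected and 5 tested, and Arg1 and Odc1 were called higher in lung in both genotypes with none lower. Odc1, which reached the filter through lung libraries alone, encodes ornithine decarboxylase, which makes putrescine from the ornithine that arginase releases. It was at 623 ± 45.0 CPM in lung CD45 KO and 671 ± 86.9 CPM in lung control libraries (SD, n = 3 each), and at 56.6 to 73.7 CPM in the means of the 4 marrow groups. The log2 fold change was 3.26 ± 0.24 in CD45 KO (SE, adjusted p = 1.15e-21) and 3.57 ± 0.24 in control mice (adjusted p = 4.64e-23).

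Lgals1, the galectin-1 gene, was at 389, 363 and 256 CPM in lung CD45 KO and 463, 513 and 457 CPM in lung control libraries. In immature ILC2 it was at 108, 104 and 84.0 CPM in CD45 KO and 55.3, 31.0 and 48.8 CPM in control libraries. In mature ILC2 it was at 59.6 CPM in the library labelled CD45 KO replicate 1, 16.8 and 8.80 CPM in the other CD45 KO libraries, and 0, 0 and 20.1 CPM in control libraries. Lung was highest, immature marrow lay between and mature marrow was lowest, and only immature control with mature CD45 KO and mature CD45 KO with mature control overlapped among neighbours in this order. The log2 fold change of lung over marrow was 2.71 ± 0.29 in CD45 KO (SE, adjusted p = 2.78e-13) and 4.5 ± 0.33 in control mice (adjusted p = 1.72e-21).

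Lgals3, the galectin-3 gene, had 6, 2 and 0 counts in lung CD45 KO and 1, 0 and 2 counts in lung control libraries, and 0 or 1 count in each marrow library. Its highest library, lung CD45 KO replicate 1, was the one that held 20 counts of macrophage and monocyte markers. The part of those cells in the Lgals3 counts was not tested. The summed ratio of lung CD45 KO over lung control was 3.13, with an exact 95% interval of 0.752 to 18.3 for counting error alone. Of 10 galectin genes listed, 7 were detected and 3 tested. Lgals9 was at 135 ± 60.0 CPM in lung CD45 KO and 123 ± 21.3 CPM in lung control libraries (SD, n = 3 each), and Lgals1 was the single galectin called in any comparison.

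**Figure D3:**
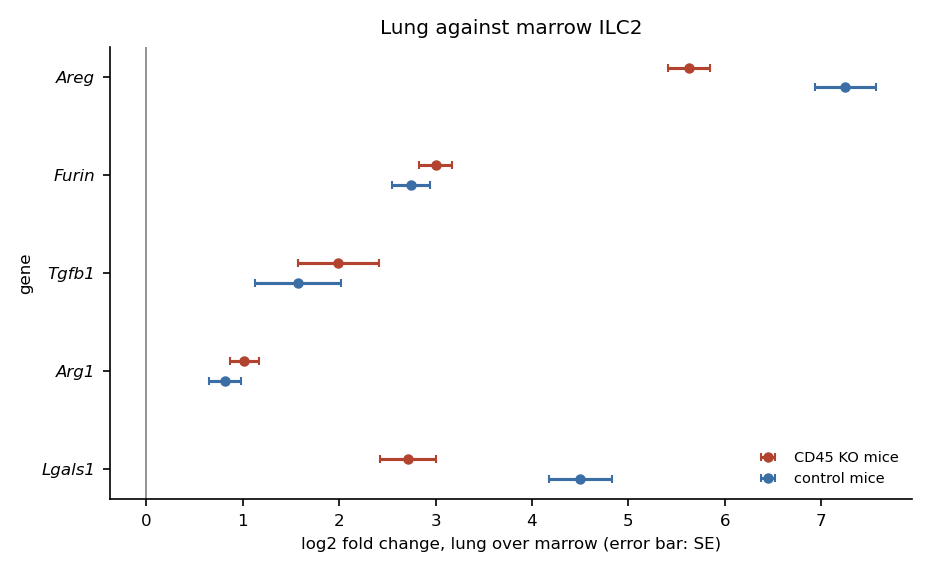
Log2 fold change of lung over marrow ILC2 for the 5 tested repair factors, in CD45 KO mice (red) and control mice (blue), with bars for the SE and a line at 0. The values run from 0.81 for Arg1 to 7.25 for Areg in control mice, and Areg and Lgals1 are the genes with the largest gap between genotypes.

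Secreted factors outside the 7 and early response genes were set against the same tissue contrast. Of 24 other repair-associated secreted factors, 19 were detected and 6 tested, and 5 were higher and none lower in lung in each genotype: the type 2 cytokine genes Il5 and Il13, the growth factor gene Csf2, Lif and Bmp2. All 5 reached the filter through lung libraries alone, so nothing is read from that count. Il5, which encodes a cytokine for eosinophils, was at 1028 ± 279 CPM in lung CD45 KO and 585 ± 116 CPM in lung control libraries (SD, n = 3 each). In marrow its group means were 3.69 to 11.9 CPM. Bmp2 lost its call in control mice with 1 library left out (highest adjusted p = 0.324). Of 22 immediate-early and dissociation genes, 15 were tested, and 10 of these, Nr4a1 among them, reached the filter through lung libraries alone, so that their direction followed from being tested. The other 5, Junb, Jund, Ier2, Ier5 and Btg2, had enough counts in either tissue and were called higher in lung in both genotypes. Of all tested genes 16.6% were called higher in CD45 KO mice and 17.6% in control mice. The list was chosen with earlier results of these data known, so nothing is read from this number. Ier5 lost its call in CD45 KO mice without lung CD45 KO replicate 1 (adjusted p = 0.0686) and in control mice without lung control replicate 1 (adjusted p = 0.144). Nr4a1, an orphan nuclear receptor gene of that list, was at 3244 ± 368 CPM in lung CD45 KO and 2358 ± 428 CPM in lung control libraries and at no more than 16.3 CPM in the mean of any marrow group. These genes respond to activation and to the handling of tissue, and their part in the lung levels of the repair factors was not tested.

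None of the 7 members was called between CD45 KO and control in lung ILC2 by edgeR's quasi-likelihood test. The log2 fold changes of the 5 tested members lay between -0.49 for Lgals1 and 0.48 for Areg and Furin. At an unadjusted p under 0.05, 4 of the 5 tested members differed (all but Tgfb1), as did 14.5% of all tested genes. DESeq2's Wald test gave an adjusted p to 356 genes, of which it called 14.3%, and to 3 of the 5 tested members (all but Lgals1 and Tgfb1), of which it called 0. By edgeR 2.51% of all tested genes were called, with 2.04% higher in CD45 KO. Groups did not overlap for Areg, Arg1 and Lgals1, as for 19.7% of all tested genes. The median log2 fold change of the tested members was 0.44, against 0.01 over all genes. The members were chosen with earlier results of these data known, so nothing is read from their share or median.

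Areg averaged 1754 ± 187 CPM in lung CD45 KO and 1259 ± 121 CPM in lung control libraries (SD, n = 3 each), and all 3 CD45 KO libraries lay above all 3 control libraries. Its log2 fold change was 0.48 ± 0.15 (SE, adjusted p = 0.0614 by edgeR's quasi-likelihood test), or 1.39-fold. This value lay near the threshold. It passed with DESeq2 size factors (0.55, adjusted p = 0.0161) and with a stricter filter, 10 or more counts in 3 libraries (0.51, adjusted p = 0.035). It also passed with the library labelled mature CD45 KO replicate 1 left out, which enters the shared estimate of the spread (0.51, adjusted p = 0.0124). The adjusted p reached 0.227 without lung CD45 KO replicate 2 and 0.334 without a filter on low counts. Of the 25 alternatives run, Areg passed in 12. The other libraries whose omission let it pass were mature control replicates 1 and 2, mature CD45 KO replicates 2 and 3, immature control replicate 3, any 1 immature CD45 KO replicate and lung CD45 KO replicate 3.

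Furin averaged 1102 ± 234 CPM in lung CD45 KO and 795 ± 101 CPM in lung control libraries (SD, n = 3 each), and the groups overlapped. Its log2 fold change was 0.48 ± 0.16 (SE, adjusted p = 0.0783 by edgeR). Furin too passed with DESeq2 size factors (0.56, adjusted p = 0.0232), with the stricter filter (0.52, adjusted p = 0.0484) and with the library labelled mature CD45 KO replicate 1 left out (0.51, adjusted p = 0.0269). It dropped to 0.31 (adjusted p = 0.51) without lung CD45 KO replicate 2, its highest library, and was at 0.65 (adjusted p = 0.0168) without lung CD45 KO replicate 3, the lowest of its group. Without a filter Furin did not pass (0.49, adjusted p = 0.479), and it passed in 4 of the 25 alternatives run.

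Arg1 averaged 813 ± 22.6 CPM in lung CD45 KO and 602 ± 34.4 CPM in lung control libraries (SD, n = 3 each), with no overlap. Counting error of a single library was wider than this spread. Its 95% interval was 600 to 1027 CPM in lung CD45 KO replicate 1 and 438 to 764 CPM in lung control replicate 1. The log2 fold change of Arg1 was 0.44 ± 0.17 (SE, adjusted p = 0.168 by edgeR). Without lung CD45 KO replicate 1, the library with macrophage markers, it was 0.48 (adjusted p = 0.23). Tgfb1 was at 155 ± 37.3 CPM in lung CD45 KO and 116 ± 24.5 CPM in lung control libraries, and the groups overlapped (0.40 ± 0.40, adjusted p = 0.761). The 95% interval of its log2 difference ran from -0.39 to 1.19.

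Lgals1 was the single tested member with a negative fold change in lung. It averaged 336 ± 70.4 CPM in lung CD45 KO and 478 ± 30.9 CPM in lung control libraries (SD, n = 3 each), without overlap, and did not pass (-0.49 ± 0.22, adjusted p = 0.251 by edgeR).

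Some genes outside the 7 did pass in lung. Of the other repair-associated secreted factors, 2 of 6 tested were higher and none lower without CD45: Il5 (0.86 ± 0.19, SE, adjusted p = 0.00191) and Il13 (1.42 ± 0.40, adjusted p = 0.0346). Of all tested genes 2.04% were called higher in that comparison. Il13 was past the cutoff of the filter in 4 lung and 0 marrow libraries. It was at 236 CPM or more in lung CD45 KO and at 193 CPM or less in lung control libraries. Its being tested thus depended on its CD45 KO level, and nothing is read from the count of 2. Il5 lost its call without lung CD45 KO replicate 2 (adjusted p = 0.132) and Il13 with any 1 of 4 lung libraries left out, control replicates 1 and 3 and CD45 KO replicates 2 and 3 (highest adjusted p = 0.347). Of the immediate-early and dissociation genes, 15 of 15 tested had positive fold changes in lung, as had 50.9% of all tested genes. Their median was 0.46 against 0.01 over all genes, and 5 were called higher (Fosb, Jund, Egr1, Nr4a1 and Nr4a3) and none lower. The list was chosen with earlier results of these data known, and 10 of the 15 reached the filter through lung libraries alone. Nothing is read from their number or shared direction. Nr4a1 (0.46, adjusted p = 0.0302) lost its call without lung control replicate 2 (0.279), lung CD45 KO replicate 2 (0.178) or lung CD45 KO replicate 3 (0.0937), without a filter (0.198) and with only the 6 lung libraries fitted (0.0805). Egr1, an early response transcription factor gene, was at 612 ± 136 CPM in lung CD45 KO and 127 ± 18.6 CPM in lung control libraries (2.24 ± 0.28, adjusted p = 8.81e-09). None of the EGF-family, convertase, galectin, arginine or TGF-beta genes tested was called by CD45 genotype in lung, mature or immature ILC2.

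In marrow the low counts set what could be seen. None of the 7 members was called between CD45 KO and control in mature or in immature ILC2 by edgeR's quasi-likelihood test, where 0.261% and 1.67% of all tested genes were called. DESeq2 called 0 members in either, and 0.0522% and 0.716% of the genes with an adjusted p, which Tgfb1 lacked in immature ILC2. At an unadjusted p under 0.05, 2 of 5 tested members differed in mature ILC2 (Areg and Furin) and 1 in immature ILC2 (Lgals1), as did 9.03% and 12.3% of all tested genes.

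Areg in mature ILC2 averaged 58.6 ± 56.7 CPM in CD45 KO and 4.97 ± 8.60 CPM in control libraries (SD, n = 3 each), and the groups did not overlap, as for 12.8% of all tested genes. The closest libraries were CD45 KO replicate 2 with 2 counts and control replicate 1 with 1 count, both under the floor of 3 counts. The summed counts were 19 against 1, a ratio of 14.3 with an exact 95% interval of 2.28 to 596. The log2 fold change of 3.47 ± 0.92 did not pass (SE, adjusted p = 0.0578 by edgeR). Of the 19 counts, 14 came from CD45 KO replicate 3, and without that library the value was 2.25 (adjusted p = 0.608). With the library labelled mature CD45 KO replicate 1 left out it was 3.68 and passed (adjusted p = 0.0286), as it did without mature CD45 KO replicate 2 (adjusted p = 0.00969) or immature CD45 KO replicate 1 or 3 (0.0471 and 0.0492). Without mature control replicate 1, the library with neutrophil markers, 0 counts were left in the controls, and the adjusted p was 0.0536. In immature ILC2 Areg had 6 against 3 counts, a ratio of 1.72 (0.368 to 10.7), which is not a detectable difference at this depth.

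Furin in mature ILC2 averaged 157 ± 17.1 CPM in CD45 KO and 95.9 ± 11.2 CPM in control libraries (SD, n = 3 each), without overlap (0.71 ± 0.35, SE, adjusted p = 0.527 by edgeR). In immature ILC2 it averaged 120 ± 23.4 CPM in CD45 KO and 146 ± 21.6 CPM in control libraries, and the groups overlapped (-0.25 ± 0.32, adjusted p = 0.832). The signs of its fold changes differed between the stages, but the difference of the effects, 0.96 ± 0.48, did not pass (adjusted p = 0.946). With the library labelled mature CD45 KO replicate 1 left out, Furin was at 0.77 in mature ILC2 (adjusted p = 0.496) and the difference at 1.01 (adjusted p = 0.986). Arg1 had log2 fold changes of 0.23 ± 0.20 in mature and 0.23 ± 0.22 in immature ILC2, and Tgfb1 of -0.04 ± 0.75 and -0.01 ± 0.58, and the groups overlapped in each case. In mature ILC2 without that library Arg1 was at 0.30 (adjusted p = 0.747) and Tgfb1 at -0.16 (adjusted p = 0.977).

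Lgals1 in immature ILC2 averaged 98.8 ± 13.0 CPM in CD45 KO and 45.0 ± 12.6 CPM in control libraries (SD, n = 3 each). All 3 CD45 KO libraries lay above the controls, as groups did not overlap for 17.9% of all tested genes, and the fold change of 1.13 ± 0.46 did not pass (SE, adjusted p = 0.25 by edgeR). In mature ILC2 it had 8 against 2 counts in all (1.46 ± 0.94, adjusted p = 0.674), and without the library labelled CD45 KO replicate 1 the value was 0.56 (adjusted p = 0.927). Without mature control replicate 3, which left 0 counts in the controls, it was 4.32 (adjusted p = 0.539).

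With both marrow stages averaged, again none of the members was called by edgeR or by DESeq2 (which gave Tgfb1 no adjusted p), where they called 2.97% and 1.29% of the genes. Unadjusted p was under 0.05 for Areg and Lgals1, 2 of 5 members, and for 16.8% of all tested genes. Areg was at 2.10 ± 0.70 (SE, adjusted p = 0.0721) and Lgals1 at 1.30 ± 0.53 (adjusted p = 0.169). With the library labelled mature CD45 KO replicate 1 left out, Areg passed (2.20, adjusted p = 0.0459) and Lgals1 was at 0.85 (adjusted p = 0.563), and without mature control replicate 3 Lgals1 was at 2.72 (adjusted p = 0.0786). Areg also passed without mature control replicate 1, mature CD45 KO replicate 2 or immature CD45 KO replicate 3, and its highest adjusted p with 1 library left out was 0.342.

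**Figure D4:**
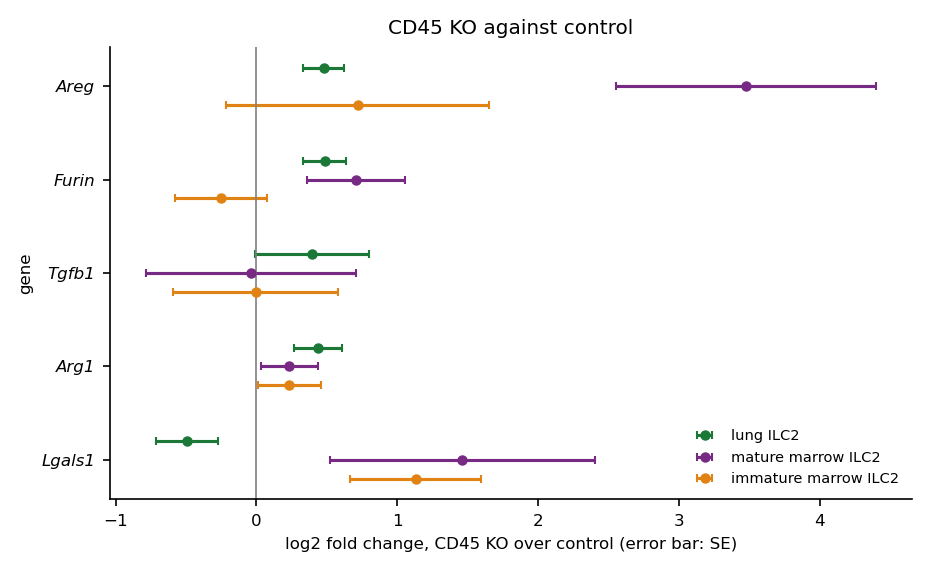
Log2 fold change of CD45 KO over control for the 5 tested repair factors in lung (green), mature marrow (purple) and immature marrow ILC2 (orange), with bars for the SE and a line at 0. Lgals1 is at -0.49 in lung and at 1.46 and 1.13 in mature and immature marrow, and Areg in mature marrow, at 3.47, has a wide error.

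The CD45 effects in lung and in marrow were compared directly in the same fit. None of the 5 tested members was called by edgeR, which called 1.25% of all tested genes. DESeq2 gave an adjusted p to 208 genes, of which it called 17.3%, and to Areg and Arg1 alone of the 5, neither of which it called. By edgeR 2 members and 13.2% of all tested genes were at an unadjusted p under 0.05. Lgals1 had the smallest adjusted p, with a difference of lung minus marrow effects of -1.79 ± 0.57 (SE, adjusted p = 0.0915). It passed without mature control replicate 3 (-3.21, adjusted p = 0.0449) or mature CD45 KO replicate 3 (-2.0, adjusted p = 0.0496), and was -1.31 (adjusted p = 0.415) with the library labelled mature CD45 KO replicate 1 left out. The Areg effects differed by -1.62 ± 0.71 (adjusted p = 0.288). That difference was -2.63 without mature control replicate 1 and -1.0 without mature CD45 KO replicate 3, and -3.0 against mature ILC2 alone and -0.24 against immature ILC2 alone as the marrow group, and it passed in none of these. Between mature and immature ILC2 the CD45 effect differed for 0 members by either tool, as for 0% of all tested genes by edgeR, with 1 member (Furin) and 4.91% of all tested genes at an unadjusted p under 0.05.

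Between the marrow stages, Lgals1 was the single member called. In CD45 KO mice it averaged 28.4 ± 27.3 CPM in mature and 98.8 ± 13.0 CPM in immature ILC2 (SD, n = 3 each), with no overlap, and fell in mature cells by edgeR's quasi-likelihood test (-1.91 ± 0.51, SE, adjusted p = 0.0451). In that comparison edgeR called 0.678% of all tested genes and 12.6% did not overlap. At an unadjusted p under 0.05 were 3 of the 5 tested members (Lgals1, Areg and Arg1) and 8.04% of all tested genes. The call was not made by DESeq2 (adjusted p = 0.327, with 0.157% of genes called) or without a filter on low counts (0.161), and Lgals1 had too few counts for a test when only the 6 libraries were fitted. It was also lost, with an adjusted p of at most 0.27, without mature CD45 KO replicate 2 or 3, any 1 immature CD45 KO replicate, lung control replicate 1 or 2 or lung CD45 KO replicate 1. It held with the library labelled mature CD45 KO replicate 1 left out (-2.81, adjusted p = 0.00954). In control mice Lgals1 averaged 6.68 ± 11.6 CPM in mature and 45.0 ± 12.6 CPM in immature ILC2, without overlap, and did not pass (-2.24 ± 0.86, adjusted p = 0.858). The closest libraries were mature control replicate 3 with 2 counts and immature control replicate 2 with 3 counts, at or under the floor of 3 counts. None of the members was called in control mice by edgeR or DESeq2, where each called 0.0522% of all tested genes, and 1 member (Lgals1) and 5.38% of all tested genes were at an unadjusted p under 0.05. Arg1 did not overlap between the stages in CD45 KO mice (464 ± 85.6 CPM in mature and 346 ± 21.2 CPM in immature ILC2) and Furin did not in control mice (95.9 ± 11.2 CPM in mature and 146 ± 21.6 CPM in immature ILC2), and groups did not overlap for 10.2% of all tested genes in control mice.

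The genes whose profile over the 18 libraries was most like that of each tested member were found by the root-mean-square difference of log2 CPM, each gene centred on its own mean. For Areg these were Ccl1, a chemokine gene (0.62), and Xist (0.64), against a median difference of 2.61 over the 1225 genes searched. Ccl1 was at 1143 ± 187 CPM in lung CD45 KO and 640 ± 86.9 CPM in lung control libraries (SD, n = 3 each), with 0 counts in all marrow groups. Xist being second shows that this likeness follows the split of lung from marrow libraries. For Furin the closest was Nfkbiz, an inhibitor of NF-kappaB family gene (0.35). For Arg1 they were Eif1, a translation initiation factor gene (0.27), and Slc25a3, the mitochondrial phosphate carrier gene (0.30). For Tgfb1 they were Ppp1r16b (0.39) and Tagln2 (0.40), and for Lgals1 Vim (0.65) and S100a6 (0.75).

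Vim, which encodes the intermediate filament protein vimentin, was at 683 ± 117 CPM in lung CD45 KO and 823 ± 212 CPM in lung control libraries (SD, n = 3 each). It was at 199 ± 28.4 CPM in mature CD45 KO and 81.0 ± 20.4 CPM in mature control libraries, and at 325 ± 26.1 CPM in immature CD45 KO and 142 ± 14.5 CPM in immature control libraries. S100a6, a calcium-binding protein gene, was at 328 ± 78.1 CPM in lung CD45 KO and 500 ± 131 CPM in lung control libraries. Both were picked for their likeness to Lgals1 over these same libraries, so the order of their group means is no separate result.

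**Figure D5:**
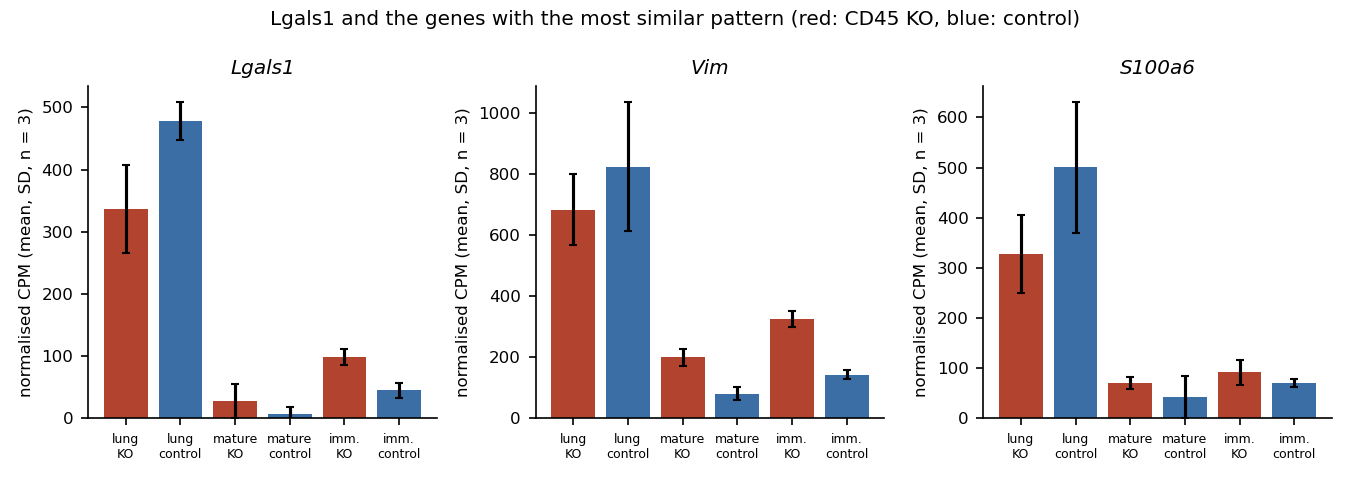
Normalised CPM (bars: mean of 3 libraries, lines: SD) of Lgals1 and the genes closest to it in profile, Vim and S100a6, in the 6 groups, with CD45 KO in red and control in blue. Vim and S100a6 were picked for this likeness. Lgals1 is at 336 CPM in CD45 KO and 478 CPM in control lung libraries, and at 98.8 CPM in CD45 KO and 45.0 CPM in control immature marrow libraries.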

How the data were processed

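The authors deposited whole-number counts per gene symbol for 18 libraries, unscaled. Per the labels' protocols, an oligo-dT primer with a molecular barcode was used and ERCC RNA was added; the table has 0 ERCC entries. The labels give 200 sorted cells and the protocol 100 cells per tube. The submitters' processing notes name STAR and mm10. Neither the counting tool nor use of strand or barcode collapse is given in the sources used here.

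Libraries were grouped by population and genotype as labelled. Counts were scaled with TMM factors, filtered with filterByExpr by group (minimum count 10) and fitted with edgeR 4.0.16 in R 4.3.3 as 6 group means over all 18 libraries. Contrasts were tested with edgeR's quasi-likelihood test, Benjamini-Hochberg adjusted over 1916 genes, with a threshold of 0.05, and SE is the absolute log2 fold change over the square root of F. CPM uses TMM-scaled library sizes, and exact intervals and floors (3 counts) cover counting error only. The interval of the Tgfb1 log2 difference in lung comes from the SE of the edgeR fit. Gene positions came from GENCODE M21 and promoters from RefSeq (GRCm38.p6). The edgeR fit was tested on simulated counts for lung CD45 KO against control alone, and the other contrasts and steps were not.

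The members and the gene lists were chosen with earlier results of these data known. Named genes are the 7 members, up to 3 called genes per list and comparison by smallest p (all called ones for the TGF-beta, secreted factor and lung immediate-early lists, a choice made after their values were seen), the most abundant of a list, Ptprc, and for each tested member the 2 genes of mean count at least 10 nearest in profile (1 of these is not reported here). Egfr, Adam17, Arg2, Tgfbr2 and Lgals9 were named after their values were seen. Alternatives were DESeq2 1.42.0 size factors and Wald test, no filter, at least 10 counts in 3 libraries, only the contrast's libraries, a replicate block and leaving out each library. Marker lists of NK cells and ILC1, T and B cells, eosinophils, basophils and mast cells, epithelium, fibroblasts and endothelium each summed to at most 6 counts in any library.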

Additional observations from a re-analysis of the deposited data

How the results depend on the processing

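Lung against marrow called 5 members in each genotype in the report's fit and with each library left out (5 to 5). In control mice it called 4 with only the contrast's libraries, where Tgfb1 had too few counts for a test, and 4 with immature ILC2 alone as marrow. In CD45 KO mice it called 6 without a filter, where Lgals3 passed as well. Under the other alternatives run it called 5. Areg, Lgals1 and Tgfb1 reached the filter through lung libraries alone, so nothing is read from the count of 5 or from its staying the same. In the report's fit 16.6% of all tested genes were called higher in CD45 KO and 17.6% in control mice. The count of members called for lung CD45 KO against control was 0, and 2 with DESeq2 size factors or with at least 10 counts in 3 libraries, and 0 to 2 with 1 library left out. It was 0 to 1 with 1 library left out for mature and for pooled marrow CD45 KO against control and for the difference of lung and marrow effects, and stayed at 0 for immature CD45 KO against control, for mature against immature control and for the difference of mature and immature effects. Mature against immature CD45 KO called 1 member, 0 to 1 with 1 library left out, and 0 without a filter, by DESeq2's Wald test or with only the contrast's libraries. Of 1249 alternative values for single members, 1173 kept their direction and side of the threshold, 26 passed in addition, 11 lost their call and 39 reversed.

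The reversals of Tgfb1 and Arg1 were of values near 0. Larger values that reversed were the Lgals1 difference of mature and immature effects (0.33) and the Furin difference of lung and marrow effects (0.26). The cause was not tested. Tgfb1 in immature CD45 KO against control was 0.0297 with DESeq2 size factors, 0.0824 without a filter and 0.0097 without Rn45s and Rn4.5s, and -0.33 to 0.45 with 1 library left out. Tgfb1 in pooled marrow was 0.0035 with DESeq2 size factors, 0.0849 without a filter and -0.25 to 0.32 with 1 library left out, and in mature ILC2 0.0874 without a filter and -0.50 to 0.64. Of the differences of mature and immature effects, Arg1 was 0.0385 and Tgfb1 0.00501 without a filter, and leaving out 1 library gave -0.26 to 0.18 for Arg1, -0.57 to 3.18 for Lgals1 and -0.49 to 0.65 for Tgfb1. The Furin difference of lung and marrow effects was -0.22 with mature ILC2 alone as marrow. The fits without Rn45s and Rn4.5s and with 1 marrow stage were chosen after seeing the data.

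Of 45 same-numbered pairs of libraries, 0 had a correlation of deviations over 0.1 (-0.0888 to 0.0755). At these low counts the deviations hold much counting error, so the check cannot tell whether same-numbered libraries were paired. With the replicate block, all genes called in lung CD45 KO against control numbered 44, against 48 without it, and no member's call changed. A fit of only the contrast's libraries is the full fit for the difference of lung and marrow effects and was not run separately. Without a filter, over 12945 genes, Lgals3 was higher in lung than in marrow in CD45 KO mice (3.8 ± 1.10, adjusted p = 0.0156, with 8 counts against 1), and Hbegf was called in none of the comparisons by edgeR. Of these 8 Lgals3 counts, 6 came from lung CD45 KO replicate 1, the library with macrophage and monocyte markers, and lung CD45 KO replicate 3 had 0. Mean counts per library had a median of 12.6 over tested genes, and depth limits Hbegf, Lgals3 and the marrow values of Areg, Lgals1 and Tgfb1.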
